A study of Musca domestica with 24 samples.

Results

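The gene bcd encodes bicoid, a homeodomain transcription factor that higher flies use to set up the head end of the embryo. In Drosophila melanogaster the gene is transcribed in the nurse cells of the ovary, its mRNA is anchored at the anterior pole of the egg, and the protein made from it spreads as a gradient that switches on target genes such as hunchback and blocks translation of caudal mRNA. It arose from a duplicated Hox gene, and its closest relative in the same gene complex is zerknüllt. The best-known site of its transcription is therefore the female germline, while the samples here are testes and heads.

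bcd (NCBI GeneID 101896911, on chromosome element E, 1 of the Muller elements that fly genomes share) is 1 of the 16540 genes counted in each tissue of the house fly, Musca domestica. It was selected on its testis counts, which were low and were higher in the strain IsoCS than in the strain CSrab at both temperatures, so the strain difference in testis is described here without a test. The 24 polyA RNA libraries form 8 groups of 3 biological replicates: head or testis of CSrab or IsoCS flies, each raised at a developmental temperature of 18 °C or 29 °C. Both strains share a common genetic background and differ in the proto-Y, a young chromosome that bears the male-determining factor. Which proto-Y belongs to which strain, the sex of the heads, the age of the flies and any pooling of animals are not given in the labels. Library totals ran from 14.9 to 40.006 M counts (M is 1000000) in testis and from 15.7 to 35.7 M in head. On the first principal component of the testis libraries, replicate 3 of IsoCS at 29 °C had a score of 11.6, apart from 82.2 and 84.6 in the other replicates of its group. Replicate 1 of CSrab at 29 °C had -8.08, apart from -39.7 and -38.7 in its group. Replicate 3 of IsoCS at 18 °C had 12.7, against 39.0 and 34.8 in its group.

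Of the named nerve genes used to check the tissues, pdf, a neuropeptide of clock neurons, had 4.997 to 20.7 CPM (counts per 1000000, on TMM-scaled totals of the tissue) in heads and at most 0.168 CPM in testes. MdRdl, a GABA receptor subunit, had 1.49 to 3.40 CPM in heads and at most 0.279 CPM in testes. The ranges of nAChRbeta3 and para-like overlapped between the tissues, at 70.4 to 105 and 76.6 to 326 CPM in heads against 44.0 to 168 and 46.3 to 176 CPM in testes. No marker of male germ cells carries a listed symbol in the tables, so the testis label was not checked that way.

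In testes, bcd was present at low counts in IsoCS and at a few counts per library in CSrab. At 18 °C the 3 CSrab libraries held 0, 1 and 3 counts, and the 3 IsoCS libraries held 55, 27 and 78. At 29 °C the CSrab libraries held 13, 4 and 4 counts, and the IsoCS libraries 152, 22 and 70. Every IsoCS testis library lay above every CSrab testis library of its temperature, in counts and in CPM.

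On the CPM scale, bcd averaged 0.0708 ± 0.0762 CPM (SD, n = 3) in CSrab testes at 18 °C and 1.76 ± 0.734 CPM in IsoCS testes. At 29 °C the means were 0.271 ± 0.167 and 2.47 ± 1.61 CPM. With the counts of each group pooled, the level in IsoCS was 24.2 times that in CSrab at 18 °C, with an exact 95% binomial interval of 9.26 to 89.8, and 9.54 times at 29 °C, with an interval of 6.10 to 15.7. These intervals cover counting error only and leave out the spread between replicates. They are no test of the strain difference, since the gene was chosen on it. The first rests on 4 counts in CSrab. At the mean level of IsoCS, a CSrab library of the depth sequenced would have held between 28.9 and 34.8 counts at 18 °C, and between 54.4 and 69.2 at 29 °C. The fitted log2 difference (CSrab over IsoCS) was -4.50 ± 0.84 (SE) at 18 °C and -3.15 ± 0.69 at 29 °C. Without replicate 3 of IsoCS at 29 °C, a library apart from its group on the first component, the difference at 29 °C was -3.26. Without replicate 3 of CSrab at 18 °C, which held 3 of the 4 counts, the difference at 18 °C was -5.70. CSrab then keeps 1 count at 18 °C, and the size of the value depends on how the fit treats counts near 0.

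As a description of where this places the gene, 47 of the 13271 genes tested in testis had a more negative difference than bcd at both temperatures. Genes whose IsoCS testis libraries all lay above all CSrab ones at both temperatures made up 5.83% of those tested (20.1% at 18 °C alone and 11.2% at 29 °C alone). Genes called different between the strains (adjusted p under 0.05) made up 12.7% at 18 °C and 10.9% at 29 °C, and among element E genes the shares were 9.67% and 8.05%. In bulk testis RNA, fewer cells that transcribe a gene and less of its RNA per cell cannot be told apart.

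**Figure D1:**
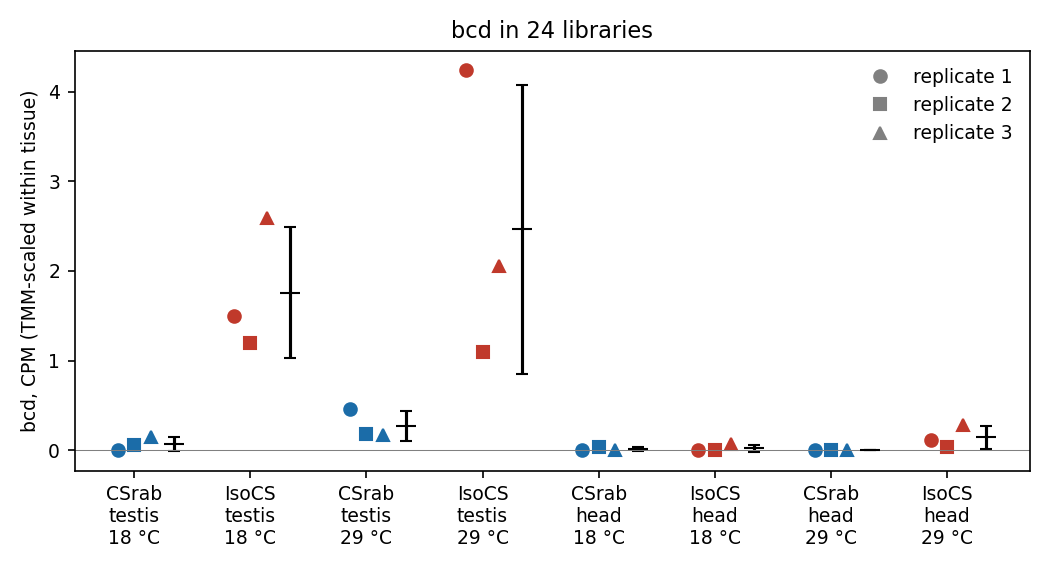
Level of bcd in each of the 24 libraries, in CPM on totals scaled within each tissue. Points are libraries, their shape gives the replicate number, and the black mark beside each group is its mean ± SD (n = 3). The 6 IsoCS testis libraries sit between 1.10 and 4.24 CPM, the 6 CSrab testis libraries at or under 0.463 CPM and the 12 head libraries at or under 0.284 CPM.

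The replicates of IsoCS testes differed widely from each other. At 18 °C they had 1.497, 1.19 and 2.59 CPM, and at 29 °C 4.24, 1.10 and 2.06 CPM, so the highest library at 29 °C was 3.86 times the lowest. Over the 12 testis libraries, CSrab included, the coefficient of variation between biological replicates that edgeR estimated for bcd was 51.2%. Of all tested genes, not matched to bcd in level, 87.5% had a lower one.

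In heads, bcd was at or near 0. The 12 head libraries held 13 counts in all, and 7 of them held none. The CSrab heads had 0, 1 and 0 counts at 18 °C and 0 in each library at 29 °C. The IsoCS heads had 0, 0 and 1 counts at 18 °C and 3, 1 and 7 at 29 °C. In the head libraries that held none, a count of 0 allows a level of up to 0.0861 to 0.170 CPM (3 counts, counting error only). IsoCS heads at 29 °C averaged 0.144 ± 0.128 CPM (SD, n = 3) and were the one head group with a count in every library.

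The counts in head were below the filter on low counts, so no main test was made there. In the edgeR fit without a filter, run over 15546 genes, the strain difference at 29 °C was -4.77 ± 1.48 (SE, log2 CSrab over IsoCS) with an adjusted p of 0.135 (0.0111 unadjusted). The CSrab heads held 0 counts at 29 °C, so the size of that value depends on how the fit treats counts of 0. All 3 IsoCS heads lay above all 3 CSrab heads there, which held for 9.74% of the genes with a count in head. The strain difference in heads at 18 °C had an adjusted p of 0.982 in that fit, and the temperature effects had 0.641 in CSrab and 0.386 in IsoCS. DESeq2 gave -4.40 ± 2.42 (SE) for the strain difference at 29 °C, with an unadjusted p of 0.0688 and no adjusted p. No comparison in head passed the threshold.

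Testis was compared with head over both strains and temperatures. Since the gene was selected on its testis counts and passed the filter through the IsoCS testes, this difference too is a description with no test. The level of bcd in testis exceeded that in head by a log2 difference of 4.64 ± 0.63 (SE). That average takes in the CSrab heads at 29 °C, with 0 counts, so its size depends on how the fit treats counts near 0. In the same fit of 14334 genes 45.9% were called higher in testis. Scaling across tissues assumes that most genes do not differ, while 87.2% were called in one direction or the other. Other scalings, filters and DESeq2 gave 4.43 to 4.68.

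Ordered by mean level, IsoCS testes at 29 °C came first, followed by IsoCS testes at 18 °C, CSrab testes at 29 °C, IsoCS heads at 29 °C, CSrab testes at 18 °C, IsoCS heads at 18 °C (0.0216 ± 0.0375 CPM), CSrab heads at 18 °C (0.0120 ± 0.0207 CPM) and CSrab heads at 29 °C (0 counts). The libraries of neighbouring groups in this order overlapped everywhere except between IsoCS testes at 18 °C, whose lowest library had 1.19 CPM, and CSrab testes at 29 °C, whose highest had 0.463 CPM. Levels of heads and testes were scaled separately.

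The temperature comparisons in testis were not used to choose the gene. However, bcd passed the filter on low counts through the IsoCS testes, so the CSrab change and the interaction are also given without a filter. In CSrab testes, bcd had 0, 0.0609 and 0.152 CPM at 18 °C and 0.463, 0.182 and 0.169 CPM at 29 °C. The groups did not overlap, which held in this direction for 14.8% of the tested genes. The log2 change (29 °C over 18 °C) was 1.85 ± 0.90 (SE, 95% interval -0.15 to 3.85), and the adjusted p by edgeR's quasi-likelihood test was 0.260 (0.0666 unadjusted), so it did not pass the threshold. It rests on 4 counts at 18 °C and 21 at 29 °C. Without replicate 1 at 29 °C, which held 13 of those 21 counts, the change was 1.21. Without a filter on low counts it was 1.89, with an adjusted p of 0.279 by the same test.

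In IsoCS testes the libraries of both temperatures overlapped, and the lowest of the 6, at 1.10 CPM, was from 29 °C. The log2 change was 0.49 ± 0.61 (SE, 95% interval -0.85 to 1.84; adjusted p 0.615 by the same test). Without replicate 1 at 29 °C it was -0.12, and without replicate 3 it was 0.61. Across the tested genes, 6.73% were called for temperature in CSrab testes, 10.4% in IsoCS testes and 0.249% for the interaction.

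The interaction, the temperature change in CSrab minus that in IsoCS, was 1.36 ± 1.08 (SE, log2, 95% interval -1.04 to 3.75), with an adjusted p of 0.759 by edgeR's test. Without a filter on low counts that test gave an adjusted p of 0.792. In the authors' deposited table the adjusted p of the interaction for bcd in testis was 0.784, and their head table lists none for it. The intervals of all 3 comparisons hold changes of more than 1 log2 unit in the positive direction, so the data do not show that temperature leaves bcd alone.

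**Figure D2:**
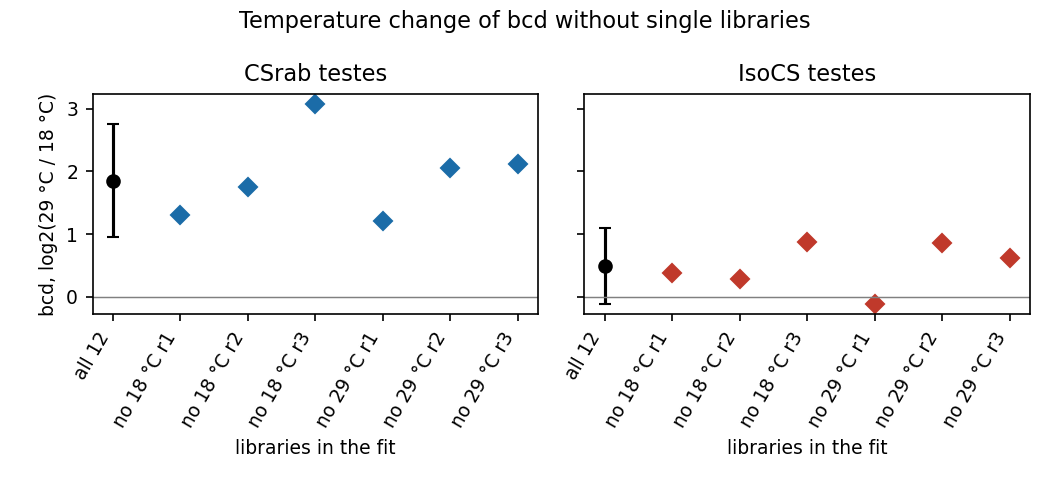
Log2 change of bcd between 29 °C and 18 °C in testes of each strain. The black point is the value from all 12 testis libraries with its SE, and each diamond is the value after leaving out the library named on the x axis; in IsoCS the value is -0.12 without replicate 1 at 29 °C and positive in the other fits shown.

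yp3, a yolk protein gene, was the one gene with a listed symbol among the markers of ovary and female tissue. In testes it had 10.3 to 26.1 CPM in 11 of the 12 libraries and 92.4 CPM in replicate 1 of IsoCS at 29 °C, which is also the library with the most bcd, 4.24 CPM. The other IsoCS testis libraries had 10.3 to 26.1 CPM of yp3 with 1.10 to 2.59 CPM of bcd, and the CSrab testis libraries had 11.8 to 23.6 CPM of yp3 with at most 0.463 CPM of bcd. Among these 11 libraries the yp3 ranges of the strains overlapped. Without that library the strain difference of bcd at 29 °C was -2.49 on the log2 scale, in place of -3.15. Yolk protein genes of flies are also transcribed in fat body, and in heads yp3 had 108 to 1126 CPM. The part of other tissues in the bcd counts of that library or of the other testis libraries was not tested.

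**Figure D3:**
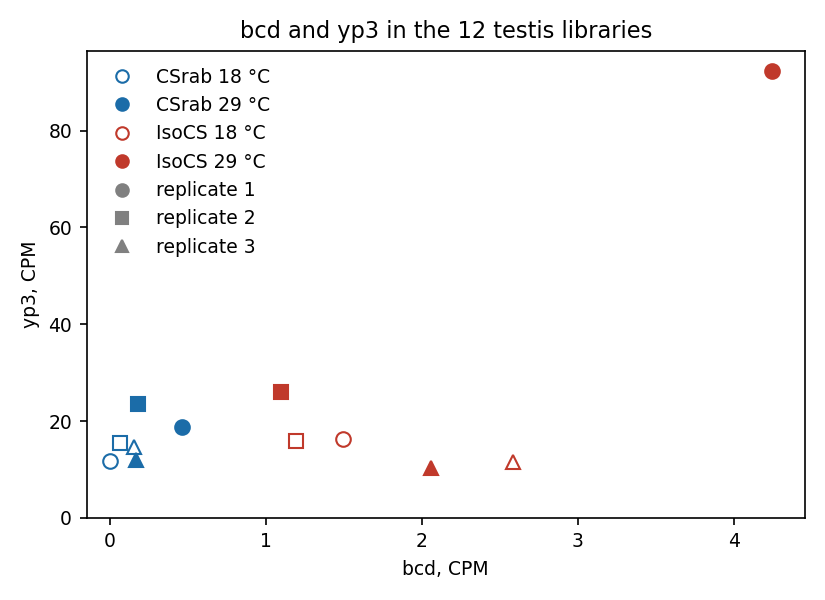
Levels of bcd (x axis, CPM) and of the yolk protein gene yp3 (y axis, CPM) in the 12 testis libraries. Colour gives the strain, filled symbols are 29 °C and open ones 18 °C; replicate 1 of IsoCS at 29 °C lies apart at 92.4 CPM of yp3 and 4.24 CPM of bcd, and the other libraries lie between 10.3 and 26.1 CPM of yp3.

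The question of whether nearby genes share the strain difference was put to the 5 counted genes listed before and the 5 listed after bcd in the reference gene table. The deposited tables place the 5 before bcd on its own scaffold and the 5 after it on other scaffolds. They list 10 counted genes on that scaffold, bcd included, so not all of its genes were examined. Counts over the whole list mix genes on and off that scaffold. The reference table names no chromosome for these genes, so the places after bcd rest on the assumption that 1 run of ascending start positions is 1 contig, which was not checked. In testis 8 of the 10 passed the filter, and LOC109612365 and LOC101895863 had 0 counts in every testis library. At 18 °C 1 of the 8 was called higher in CSrab, against 7.56% of all tested genes, and at 29 °C 2 were, against 5.3%. In the main fit 0 of the 8 were called lower in CSrab at either temperature, against 5.15% and 5.58%. Their median log2 strain difference was 0.07 at both temperatures, against -0.00046 and 0.01 over all tested genes. Among the 5 genes on the scaffold of bcd, 1 was called at each temperature, LOC101897611. Counts of this size do not set these genes apart from the rest.

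LOC101897611, the fifth counted gene before bcd and on its scaffold, averaged 145 ± 4.72 CPM (SD, n = 3) in the testes of CSrab at 18 °C, and 85.6 ± 6.50 CPM in those of IsoCS. Its log2 strain difference was 0.76 ± 0.14 (SE, adjusted p 0.00645 by edgeR) at 18 °C and 0.97 ± 0.14 (adjusted p 0.00206) at 29 °C, where the call was lost with the 6 libraries of that temperature alone (adjusted p 0.0512). LOC105262426, listed second after bcd but on another scaffold in the deposited tables, had 2.28 to 3.59 CPM in CSrab testes at 29 °C and 0.447 to 0.559 CPM in IsoCS. That is a log2 difference of 2.63 ± 0.35 (SE, adjusted p 0.00106). It was the 1 of the 8 called for temperature in IsoCS (3.81% of all tested genes fell there), with a change of -2.45 ± 0.35 in IsoCS testes (adjusted p 0.00396), and that call was lost when the fit held just the 6 libraries compared.

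LOC101897085, the nearest counted gene before bcd and on its scaffold, ranged from 1.34 to 3.71 CPM in CSrab testes at 18 °C and from 4.24 to 5.53 CPM in IsoCS testes. Its log2 difference of -1.02 ± 0.46 (SE) did not pass the test (adjusted p 0.192), and at 29 °C the value was -0.09 ± 0.46. LOC101890971, listed first after bcd but on another scaffold in the deposited tables, had -0.31 ± 0.39 at 18 °C and -1.29 ± 0.40 at 29 °C (adjusted p 0.0643). For temperature in CSrab testes edgeR called 0 of the 8 genes, with 0 at an unadjusted p under 0.05, and DESeq2 also called 0. In that run of the reference assembly, 0 other genes overlap bcd.

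**Figure D4:**
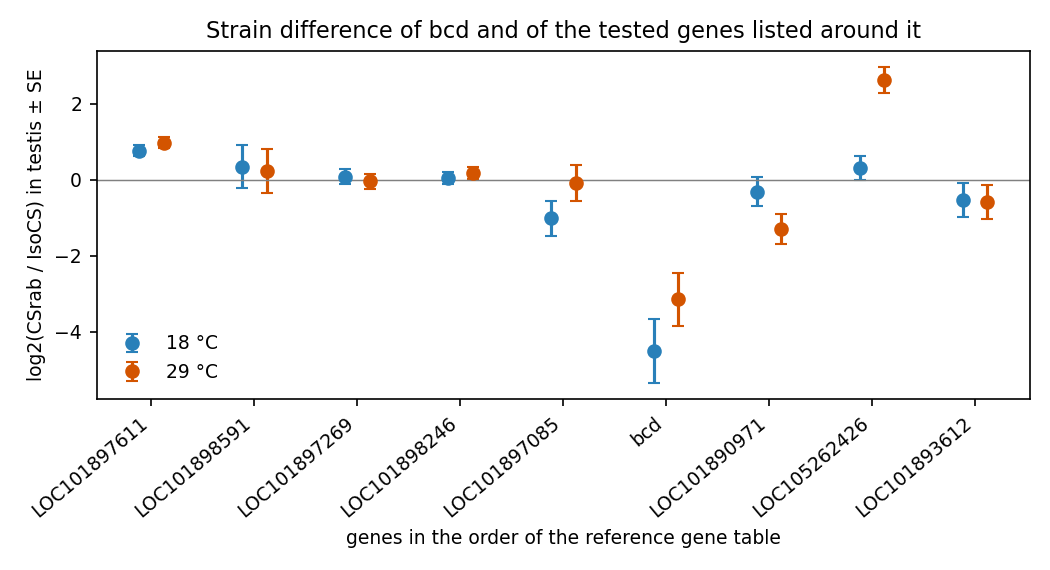
Log2 strain difference in testis (CSrab over IsoCS, ± SE) of bcd and of the 8 tested genes listed around it, in the order of the reference gene table, at 18 °C and 29 °C; the deposited tables place the 5 left of bcd on its scaffold and the 3 right of it on others. bcd has the most negative value at each temperature, -4.50 and -3.15, and the other genes lie between -1.29 and 2.63.

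Likeness to bcd was measured by Pearson's r of log2 CPM (with a prior count of 2) over the 12 testis libraries, as a description. Since bcd was chosen for its strain difference, the genes most like it also differ between the strains. The 6 genes with the highest r were LOC105262094, LOC109613460, LOC101897565, LOC101894549, LOC109612228 and LOC101894373, with r from 0.941 to 0.965, and 47 genes had an r of at least 0.9. The files give no name or function for them, and their fitted log2 strain differences (CSrab over IsoCS) ran from -4.56 to -1.40 at 18 °C and from -4.48 to -0.86 at 29 °C, given as a description with no test. Of these, 3 are on element B, 1 on A and 1 on E, and 1 has no element.

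LOC101897565, which like bcd is on element E, had 0.380 to 1.18 CPM in the CSrab testis libraries and 3.15 to 6.94 CPM in the IsoCS ones. LOC109612228 was the gene most like bcd by rank (Spearman's rho 0.965) and kept a high r within each strain, 0.875 over the 6 IsoCS libraries and 0.870 over the 6 CSrab libraries. In CSrab testes it averaged 1.89 ± 0.443 CPM (SD, n = 3) at 18 °C and 7.49 ± 1.87 CPM at 29 °C. The log2 change was 1.99 ± 0.27 (SE) in CSrab, where bcd also lay higher at 29 °C in every library, so it is a description with no test. In IsoCS testes the change was 0.08 ± 0.25 (SE). LOC109613460, in contrast, had an r of 0.048 within IsoCS, while its r over all 12 libraries was 0.946.

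The lowest r values belonged to LOC101892644, at -0.969, and LOC101901389, at -0.965. LOC101892644 averaged 9.46 ± 0.802 CPM (SD, n = 3) in the CSrab testes at 18 °C, and 2.44 ± 0.307 CPM in the IsoCS ones. Over all 24 libraries, heads included, 0 of the 6 genes stayed among the 6 most like bcd. LOC105262094, the first of them in testis, had an r of 0.278 there, and the others had r from 0.696 to 0.880. LOC101892644 and LOC101901389 had -0.921 and -0.855.

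**Figure D5:**
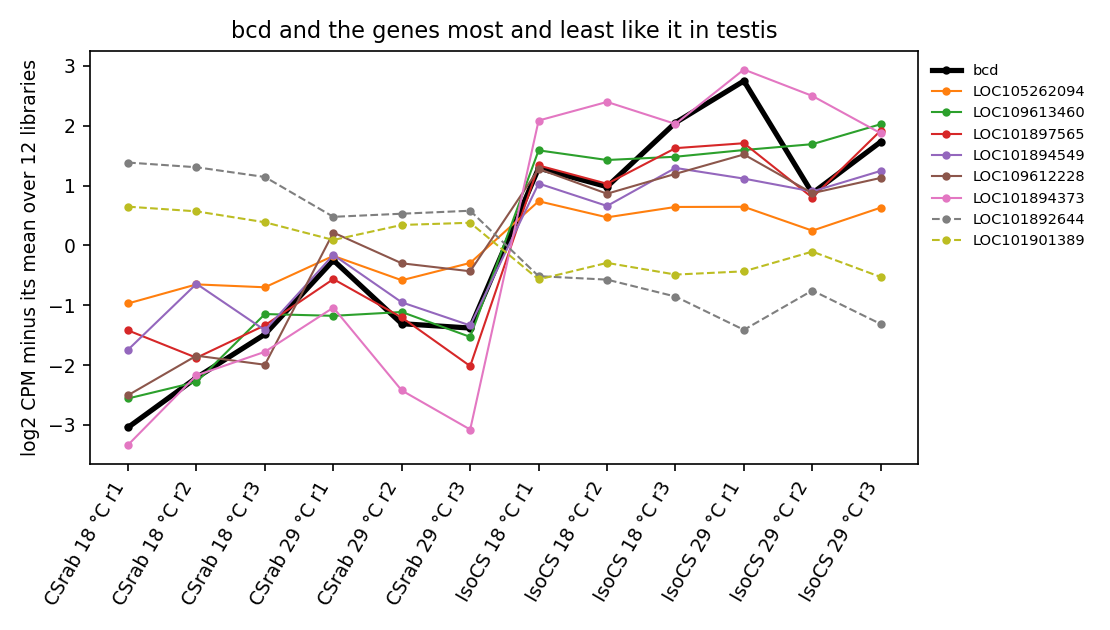
Log2 CPM of bcd (black), of the 6 genes most like it and of the 2 least like it (dashed) in the 12 testis libraries, each minus its own mean over them. Lines join libraries only to guide the eye, since replicates have no order; the 6 genes follow bcd upward from CSrab to IsoCS, and both dashed genes run the other way.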

How the data were processed

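Gene counts come from 24 polyA libraries of house fly head and testis, made with a stranded mRNA kit per the labels. The authors deposited raw read counts per gene, and, per the file headers, 1 adjusted p-value per gene for the interaction of strain and temperature. The submitters' processing notes name HISAT2, SAMtools, HTSeq and DESeq2. Their versions, settings, genome build and the strand setting of the counting are not given in the sources used here, so the treatment of reads that match more than 1 gene is unknown. Each of the 24 columns was matched to 1 library by its title, and 0 were left over.

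The 12 libraries of a tissue were fitted together with 1 coefficient per group in edgeR 4.0.16 (R 4.3.3, limma 3.58.1). Genes passed filterByExpr (minimum count 10, minimum total 15), totals were TMM-scaled, and the quasi-likelihood test was adjusted by Benjamini-Hochberg over all genes tested, with calls at 0.05. The tissue contrast used all 24 libraries. SE is the log2 value over the root of its F. DESeq2 1.42.0 was an alternative.

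The gene, its lists and the rule for named genes (5 counted neighbours on each side, the 6 most and 2 least alike genes) were chosen with earlier results of these data known. Neighbours were read from the RefSeq gene table of Musca_domestica.polishedcontigs.V.1.1, which held 12947 of 14882 gene identifiers, as the run of ascending starts around bcd, taken without a check to be 1 contig. Of 21 anterior patterning symbols 1 was found (bcd), and of 16 marker symbols 1 (yp3). Homeobox genes could not be listed, as no protein or product names were at hand. The nerve genes were picked after the tables were read.

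Replicate numbers recur in each group. In testis, deviations from group means of same-numbered libraries correlated across temperatures at 0.156 to 0.313 in CSrab and 0.200 to 0.522 in IsoCS, so the numbers were taken to pair temperatures within a strain. Between strains the range was -0.409 to 0.436, and the numbers were not taken to pair strains. In heads the correlation across temperatures was 0.261 to 0.552 in CSrab and -0.140 to 0.365 in IsoCS. The main fits held no block for replicate numbers, and fits with a block are among the alternatives.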

Additional observations from a re-analysis of the deposited data

How the results depend on the processing

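The strain difference of bcd in testis ran from -4.59 to -4.49 (log2, 18 °C) and from -3.17 to -3.08 (29 °C) over scaling, filter, DESeq2, block and group choices. Without single libraries it ran from -5.70 to -3.96 and from -3.79 to -2.49. The gene was chosen on the direction of this difference, and the libraries of the strains did not overlap. That the direction was kept is therefore no support, and the ranges describe its size. The tissue difference, also a description, was 4.43 to 4.68 and, without single libraries, 4.33 to 5.19. No alternative made a call of the temperature change of bcd in either strain or of its interaction: without single libraries these ran from 1.21 to 3.08 (CSrab), -0.12 to 0.88 (IsoCS) and 0.72 to 2.57, and the IsoCS value turned negative, to -0.12, without replicate 1 at 29 °C. A replicate block within strain, added after the data were seen, gave 1.79 in CSrab and 0.36 in IsoCS. The adjusted p by edgeR's test was 0.316 and 0.704 there. The planned replicate block gave 1.44 for the interaction. No block changed a call of bcd.

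Of the genes listed around bcd, those called for strain at 29 °C numbered 1 with only the groups compared. Of the same listed genes, those called for temperature in IsoCS testes numbered 3 with DESeq2 or all 24 libraries in one fit. They numbered 0 with only the groups compared, with or without the replicate block. Without single libraries they numbered 1 to 4 (4 without IsoCS 29 °C replicate 3). Of 424 alternatives of single named genes 408 kept their direction and side of the threshold, 16 lost the call and 0 reversed. Most of the 424 were strain differences of the genes most and least like bcd. Those genes were picked on these libraries, so their kept calls are a description and no support. Counts over all genes moved more. Against 1687 genes called for strain at 18 °C, 866 (without IsoCS 18 °C replicate 1) to 3245 (only the groups compared) were called; against 1444 at 29 °C, 319 (only the groups compared) to 3065 (without IsoCS 29 °C replicate 3), and 2199 with DESeq2. For temperature, 893 in CSrab became 276 (without CSrab 18 °C replicate 2) to 1649 (DESeq2), and 1383 in IsoCS became 3 (block, only the groups compared) to 3459 (without IsoCS 29 °C replicate 3), and 2402 with DESeq2. For the interaction, 33 became 3 (block within strain) to 247 (DESeq2). The causes were not tested. Of the 6 genes most like bcd, 3 stayed in the first 6 by Spearman's rho and 1 with log2(CPM + 1). With at most 13 counts in a CSrab testis library and 7 in a head library, counting error limits every value of bcd outside IsoCS testes.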
